A study of Mus musculus with 12 samples.

Results

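The inhibin, activin and BMP genes described here are 10 members of the TGF-β superfamily and its soluble inhibitors, taken by name from the 39017 genes of the deposited table: Inha, Inhba, Inhbb, Fst, Fstl3, Bmp2, Bmp4, Bmp5, Bmp6 and Bmp7. All 10 had enough counts to be tested, among 14953 genes. They were measured by RNA sequencing of whole adrenals, trimmed of fat, in 6 control (Ctrl) and 6 βCat-GOF mice, with 12 libraries in all, to compare the gland with and without stabilized β-catenin in the zona glomerulosa (zG), the outer, aldosterone-producing zone of the cortex. Ctrl mice carried the genotype ASCre/+, although their sample titles call them wild type. βCat-GOF mice were ASCre/+ ::Ctnnb1fl(ex3)/+. Cre was driven in both groups by the Cyp11b2 (AS) locus, a gene of zG cells, so that the Ctnnb1 exon, whose loss stabilizes β-catenin, is removed in cells that express Cyp11b2 and in their descendants. All mice were females of 10 to 11 weeks on a mixed sv129-C57Bl/6 background. Each value is an average over zG, zona fasciculata (zF), medulla, capsule and vessels, and in such bulk RNA fewer cells of a type and less RNA per cell cannot be told apart.

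Activins are dimers of the β chains encoded by Inhba and Inhbb, whereas an α chain, encoded by Inha, joined to a β chain gives an inhibin, which opposes activin at its receptors. Follistatin (Fst) and follistatin-like 3 (Fstl3) are secreted proteins that bind activins, and some BMPs, and keep them from their receptors. Activins signal through type II and type I receptors to Smad2 and Smad3, BMPs to Smad1, Smad5 and Smad9, and Inha is best known in the adrenal as a product of cortical cells.

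The libraries held between 13484675 and 25625494 counts on genes, at which 3 counts correspond to 0.117 to 0.222 CPM, a count scaled to a common library total. Markers of zG, zF and medulla were all present. Of 7 zG markers, 3 were called higher in βCat-GOF adrenals (Agtr1b, Vsnl1 and Dab2). Kcnk9 and Wnt4 were not called (log2 fold changes of 0.96 and 0.79, edgeR adjusted p of 0.093 and 0.095). Neither were Hsd3b6 (0.15, adjusted p = 0.91) and Cyp11b2 (-0.18, adjusted p = 0.82). The summed level of all 7 ran from 1186 to 1854 CPM in Ctrl and from 1353 to 3410 CPM in βCat-GOF mice, with overlapping ranges. Dab2 weighs most in this sum (mean normalized counts of 13477 in Ctrl and 22811 in βCat-GOF mice). Mice are numbered within a group without order. The labels of 6 mice form 3 pairs with a shared stem (Ctrl mice 1 and 2, Ctrl mice 3 and 4, βCat-GOF mice 1 and 2), and the number that begins a label follows the genotype in all but βCat-GOF mouse 5, so family or batch and genotype cannot be told apart. The labels do not say whether a shared stem marks littermates or repeat samples of 1 animal, and each library is counted here as 1 mouse. The counts of these 3 pairs differed by far more than counting noise (chi-square per gene of 53.6 to 58.3 over 11246 genes, where counting noise alone gives about 1), within the range of the other 27 pairs of the same genotype (20.7 to 187). Without 1 mouse of each pair, the log2 fold change was 1.36 for Fst (edgeR adjusted p = 0.029) and -0.60 for Fstl3 (adjusted p = 0.049). Normalized counts are counts divided by a median-of-ratios factor per library.

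Sequence before a RefSeq start site is shown for 4 of the genes, because β-catenin acts on DNA through TCF/LEF factors. Fstl3 and Inhbb were included because Fstl3 was the member called between the genotypes and Inhbb the activin chain with the smallest p. RefSeq start sites (GRCm38.p6) were found for 7 of the 10 genes, all but Fst, Bmp2 and Bmp7, and the 250 bases before each start were searched on both strands for CTTTGA (reverse complement TCAAAG), the core of the TCF/LEF motif. It was present before the RefSeq starts of Inha and Inhba. The motif lies at chr1:75507547-75507552, 62 bases before the RefSeq start of Inha, on the strand of the gene and inside a GENCODE intron of Inha. For Inhba it lies at chr13:16011614-16011619, 237 bases before the start, upstream of the gene and on the opposite strand. Capitals mark the motif in these stretches, written 5′ to 3′ on the strand of the gene.
Inha: ttggcaggtcaaCTTTGAagagtagccggt
Inhba: ggagctctatccTCAAAGgaactttgtttc
The corresponding letters were absent from the windows of Fstl3 (chr10:79777024-79777271, + strand) and Inhbb (chr1:119422249-119422498, − strand), which are printed without capitals, up to the annotated start of each gene.
Fstl3: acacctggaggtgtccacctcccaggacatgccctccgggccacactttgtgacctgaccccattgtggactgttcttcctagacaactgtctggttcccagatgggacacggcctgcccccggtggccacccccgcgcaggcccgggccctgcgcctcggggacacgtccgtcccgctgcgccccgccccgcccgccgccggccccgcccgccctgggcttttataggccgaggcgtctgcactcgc
Inhbb: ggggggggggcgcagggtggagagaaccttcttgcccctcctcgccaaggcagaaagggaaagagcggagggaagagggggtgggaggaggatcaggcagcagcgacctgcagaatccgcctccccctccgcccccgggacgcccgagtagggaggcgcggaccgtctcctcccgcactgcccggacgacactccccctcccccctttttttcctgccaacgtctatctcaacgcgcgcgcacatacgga
Of all 32851 RefSeq windows of this length, 13.8% held the TCF/LEF core. The binding motif of steroidogenic factor 1 (AAGGTCA, reverse complement TGACCTT), present in 4.1% of them, was found in none of the 7. However, the windows of Inha (160 exon and 90 intron bases) and Bmp6 (250 exon bases) lie wholly inside the GENCODE models of these genes. For these genes the sequence before the GENCODE start was not searched. The windows of Inhbb and Fstl3 are rich in G and C (68.0% and 71.2%), whereas that of Inhba is not (43.2%).

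Per length of exon, Bmp7 had the highest mean level of the 10 transcripts in both groups, and Inhba the lowest. In βCat-GOF mice 1 and 2, however, Inha (328 and 342 per kb) exceeded Bmp7 (218 and 243 per kb). In Ctrl adrenals the mean levels, in normalized counts per kb, were 324 for Bmp7, 206 for Inha and 150 for Fstl3. Bmp2 (93.1 per kb) and Bmp4 (80.4 per kb) came next and overlapped each other. Bmp6 (35.0 per kb) lay below both in each of the 6 Ctrl mice. Inhbb (15.0), Bmp5 (10.7) and Fst (9.74) formed an overlapping group at the low end, and Inhba stood at 2.92 per kb, below every Ctrl value of Fst. Neighbours whose ranges over the Ctrl mice did not overlap were Fstl3 and Bmp2, Bmp4 and Bmp6, Bmp6 and Inhbb, and Fst and Inhba. In βCat-GOF adrenals Fst (21.3 per kb) and Inhbb (25.9 per kb) stood next to Bmp6 (20.9 per kb), with overlapping ranges, and Fstl3 (98.4 per kb) overlapped Bmp2 (99.6 per kb). The order of the mean levels of the other genes was the same as in Ctrl. Of the exon bases of Fstl3 and Bmp5, 47.3% and 46.7% overlap genes on the other strand. Whether counting used the strand is not known, so the levels per length and the places of these genes are less certain.

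**Figure D1:**
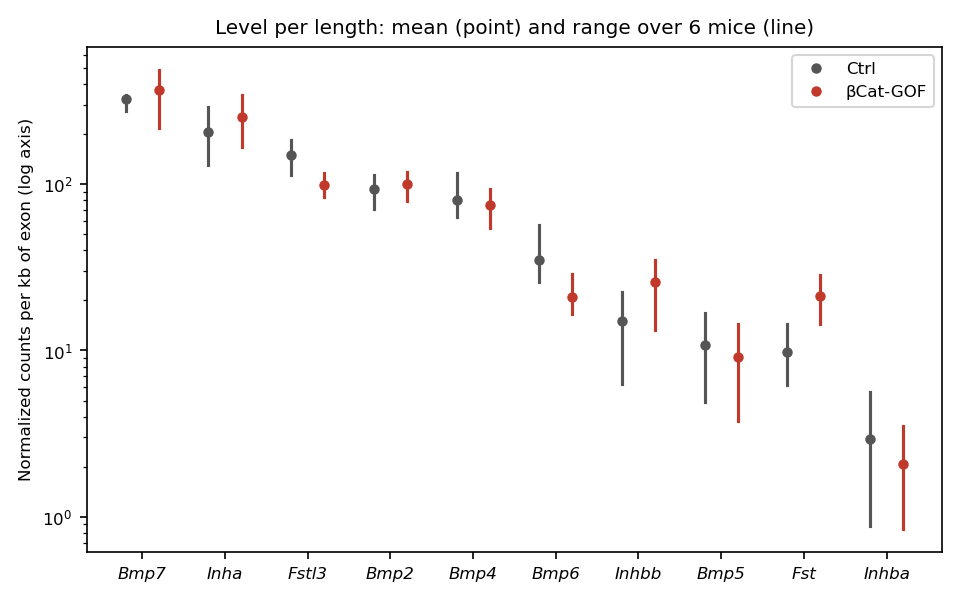
Level of each gene in normalized counts per kb of exon (log axis) in Ctrl (grey) and βCat-GOF (red) adrenals, as the mean (point) and the range over 6 mice (line). Bmp7 has the highest and Inhba the lowest mean in both groups, and Fst has a range of 6.18 to 14.4 in Ctrl and of 14.5 to 28.4 in βCat-GOF.

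At an edgeR adjusted p under 0.05, the gene for follistatin was higher and that for follistatin-like 3 lower in βCat-GOF adrenals. No ligand gene among the members passed this limit, and Bmp6 came nearest (log2 fold change -0.75, edgeR adjusted p = 0.067). Fst rose 2.17-fold and Fstl3 fell 1.54-fold. A gene was called where the edgeR adjusted p was under 0.05, the fold over 1.4 and the mean over all 12 mice (base mean) over 100 normalized counts. By these limits Fstl3 was the single member called lower, beside 0.869% of all genes tested, and 0 members were called higher, beside 1.48%. By the adjusted p alone Fst passed among the higher genes (2.16% of all genes) and Fstl3 among the lower (1.52%). Fst, Inhbb, Inhba and Bmp5 had base means under 100 and could not be called whatever their change. Of the 10 genes 5 had a higher and 5 a lower mean level, with a median log2 fold change of -0.01 beside 0.000105 over all genes, and 4 had an unadjusted edgeR p under 0.05, beside 20.4% of all genes.

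**Figure D2:**
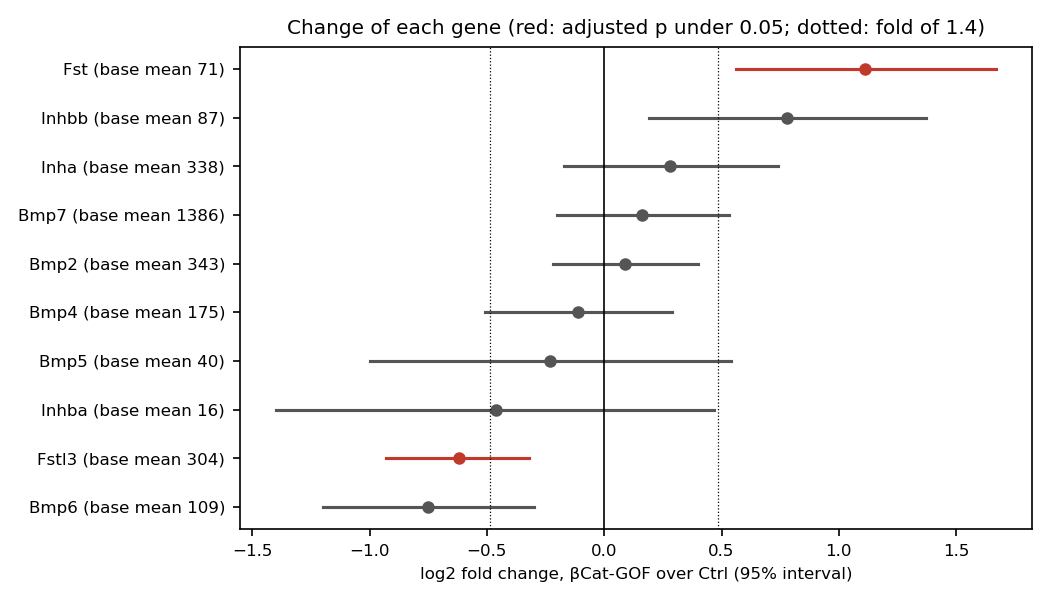
Log2 fold change of each gene in βCat-GOF over Ctrl adrenals (6 mice each) with its 95% interval from edgeR; red marks an adjusted p under 0.05 and dotted lines a fold of 1.4 either way. Fst lies at 1.11 and Fstl3 at -0.62, and the intervals of Inha, Bmp7, Bmp2, Bmp4, Bmp5 and Inhba include 0.

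Fst (chr13:114452290-114458951, − strand, 3 exon blocks) encodes follistatin, the high-affinity activin antagonist. Its normalized counts in Ctrl mice 1 to 6 were 59.0, 28.3, 48.0, 66.2, 33.2 and 33.5, and in βCat-GOF mice 66.5, 112, 128, 72.8, 130 and 75.8. Every βCat-GOF value lay above every Ctrl value, though the lowest βCat-GOF mouse (66.5) and the highest Ctrl mouse (66.2) were close together. Fst was the one member whose groups did not overlap, beside 1.61% of all genes with every βCat-GOF mouse above every Ctrl mouse and 1.16% with every one below. Means were 44.7 ± 15.5 and 97.5 ± 29.2 (SD, n = 6 mice each), a log2 fold change of 1.11 (SE 0.26, 95% interval 0.56 to 1.67) with an edgeR adjusted p of 0.03. An exact permutation test over all 924 splits of the mice gave p = 0.0022, two-sided and unadjusted, the smallest such a design allows. The raw counts behind these values were 24 to 143 per library, and the adjusted p rose to between 0.056 and 0.073 without Ctrl mouse 2, 5 or 6 or without βCat-GOF mouse 2, 3 or 5, with log2 fold changes of 1.01 to 1.08.

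Fstl3 (chr10:79777272-79782630, + strand, 6 exon blocks) encodes the second follistatin-type activin inhibitor, which lacks one of the domains of follistatin. Its normalized counts were 447, 433, 277, 310, 393 and 346 in Ctrl mice 1 to 6 and 207, 213, 205, 272, 283 and 264 in βCat-GOF mice. In 5 of the 6 βCat-GOF mice the value was below that of every Ctrl mouse, and the remaining one, mouse 5 at 283, exceeded only Ctrl mouse 3 at 277. Means were 368 ± 67.9 in 6 Ctrl mice and 241 ± 36.1 in 6 βCat-GOF mice (SD), so that Fstl3 fell by 0.62 on the log2 scale (SE 0.14, 95% interval -0.93 to -0.32, edgeR adjusted p = 0.029). The exact permutation test gave p = 0.0043 (two-sided, unadjusted). The direction held without any 1 mouse, with log2 fold changes of -0.69 to -0.55, but the call was lost without Ctrl mouse 1, 2, 5 or 6 or without βCat-GOF mouse 2 or 3, where the adjusted p was 0.054 to 0.064. Of the exon bases of Fstl3, 47.3% overlap Prss57 on the other strand, and the sources used here do not say whether counting used the strand. Prss57 itself, named after its values were seen, had 4 to 13 counts in Ctrl and 2 to 14 in βCat-GOF libraries.

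The ratio of Fst to Fstl3 normalized counts within a mouse combines these 2 differences and is no further evidence for them. It was chosen because one gene rose and the other fell, and so no p-value is given for it. It ran from 0.0655 to 0.214 in Ctrl mice (mean 0.128 ± 0.0568, SD, n = 6) and from 0.267 to 0.624 in βCat-GOF mice (mean 0.415 ± 0.145, SD, n = 6), without overlap. The geometric mean ratio was 3.35-fold higher in βCat-GOF adrenals. Within the βCat-GOF group, mouse 5 had the highest value of both genes, whereas mouse 3, with nearly as much Fst, had the lowest Fstl3.

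**Figure D3:**
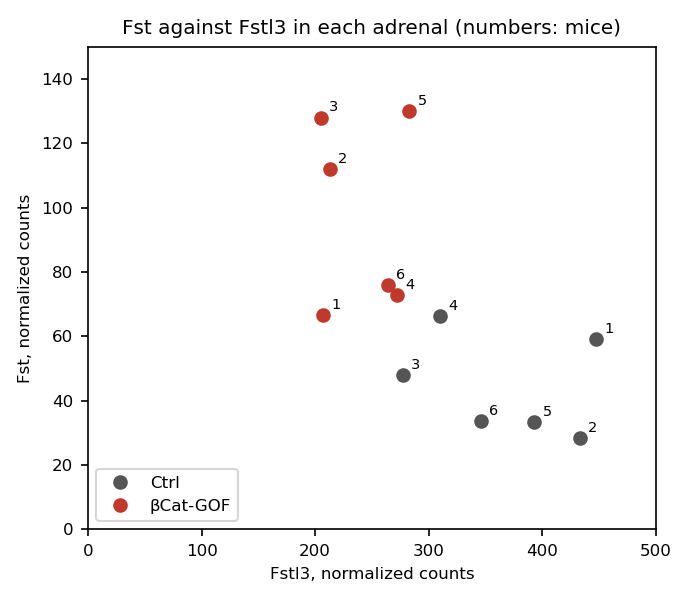
Normalized counts of Fst (vertical) against Fstl3 (horizontal) in each of 6 Ctrl (grey) and 6 βCat-GOF (red) adrenals, numbered by mouse within the group. βCat-GOF mice lie to the upper left, with Fst from 66.5 to 130 and Fstl3 from 205 to 283, and Ctrl mice to the lower right, with Fst from 28.3 to 66.2 and Fstl3 from 277 to 447.

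The inhibin and activin chains themselves did not pass the test. Inhbb (chr1:119415465-119422248, − strand, 2 exon blocks), the βB chain of activin B and inhibin B, had normalized counts of 26.7 to 95.6 (median 66.7) in Ctrl and 56.4 to 149 (median 116) in βCat-GOF mice. In 5 of 6 βCat-GOF mice it exceeded every Ctrl mouse, and in mouse 1 (56.4) it lay inside the Ctrl range. The means, 63.6 ± 22.5 and 110 ± 31.4, gave a log2 fold change of 0.78 (SE 0.27, 95% interval 0.19 to 1.37, edgeR adjusted p = 0.14, exact permutation p = 0.022 unadjusted). Without βCat-GOF mouse 1 the adjusted p was 0.047 at a log2 fold change of 0.92. This was the only 1 of 12 edgeR fits without a single mouse that passed, and the adjusted p ran up to 0.24.

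Inha (chr1:75507077-75510366, + strand, 2 exon blocks), the inhibin α chain, had 193 to 430 normalized counts (median 296) in Ctrl and 244 to 504 (median 343) in βCat-GOF mice. The ranges overlapped widely, and βCat-GOF mice 1 and 2, at 483 and 504, were the only ones above every Ctrl mouse. Its log2 fold change was 0.28 (SE 0.21, 95% interval -0.17 to 0.74, edgeR adjusted p = 0.49). Inhba (chr13:16011851-16031621, + strand, 5 exon blocks), the βA chain of activin A, was near the limit of what the depth can resolve, with 6 to 40 raw counts per library. Its normalized counts ran from 5.62 to 35.9 in Ctrl and from 5.37 to 22.4 in βCat-GOF mice, and the log2 fold change of -0.46 has an interval from -1.4 to 0.47 (edgeR adjusted p = 0.59), so that neither a marked fall nor a modest rise could be resolved. The ratio of Inhbb to Inha within a mouse, also chosen after the values were seen, was 0.229 ± 0.104 in Ctrl and 0.328 ± 0.149 in βCat-GOF adrenals, and the groups overlapped.

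**Figure D4:**
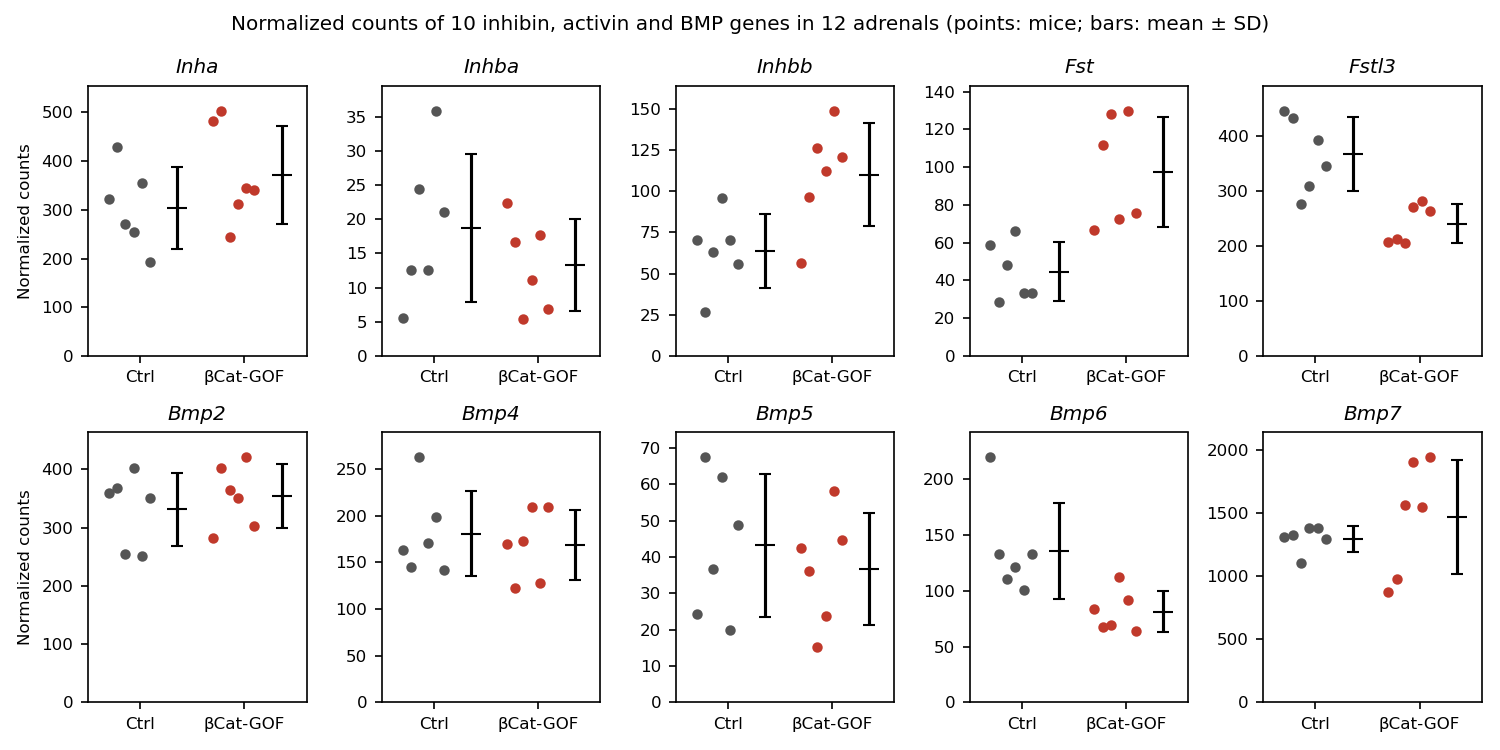
Normalized counts of the 10 genes in each of 6 Ctrl (grey) and 6 βCat-GOF (red) adrenals (points), with mean ± SD beside each group (black); axes start at 0 and differ between panels. Fst separates the groups, Fstl3, Bmp6 and Inhbb do so in all but 1 βCat-GOF mouse, and Bmp7 spreads from 877 to 1947 in βCat-GOF mice against 1103 to 1383 in Ctrl mice.

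Among the BMP ligands, which signal from the cell surface to Smad1, Smad5 and Smad9, Bmp6 had the largest difference and missed the threshold. Bmp6 (chr13:38345107-38500302, + strand, 9 exon blocks), also known for its role in iron balance in the liver, had 101 to 220 normalized counts (median 127) in Ctrl and 64.3 to 112 (median 76.6) in βCat-GOF mice. In all βCat-GOF mice but mouse 4 (112) the value was below that of every Ctrl mouse. Means of 136 ± 42.9 and 81.5 ± 18.4 gave a log2 fold change of -0.75 (SE 0.21, 95% interval -1.20 to -0.30) with an edgeR adjusted p of 0.067 and an unadjusted exact permutation p of 0.0065. Bmp6 passed with DESeq2 (adjusted p = 0.012) and, in edgeR, without βCat-GOF mouse 4 (log2 fold change -0.86, adjusted p = 0.044). This was the only 1 of 12 edgeR fits without a single mouse that passed, and the adjusted p ran up to 0.13. The log2 fold change was -0.56 without Ctrl mouse 1 (edgeR adjusted p = 0.097). It was -0.60 without 1 mouse of each pair with a shared stem (edgeR adjusted p = 0.13). The highest Ctrl value, 220 in mouse 1, stood apart from the other Ctrl mice, of which the next was at 133.

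Bmp7 (chr2:172868012-172940321, − strand, 7 exon blocks), a BMP best known from kidney development, had a wider spread in βCat-GOF mice, and the difference in its mean did not pass the test. In Ctrl mice 1 to 6 it had 1314, 1327, 1103, 1383, 1382 and 1294 normalized counts, and in βCat-GOF mice 877, 978, 1570, 1909, 1550 and 1947. In βCat-GOF mice 1 and 2 Bmp7 was lower, and in the other 4 higher, than in every Ctrl mouse. The SD of the log2 values was 0.12 in Ctrl and 0.49 in βCat-GOF adrenals, and Bmp7 was the only one of the 10 genes with a larger SD in βCat-GOF mice. This difference in spread was not tested, and beyond the 10 genes a wider spread was not particular to Bmp7. Among pathway genes named below, the SD as a percent of the mean was 5.28% in Ctrl and 23.4% in βCat-GOF mice for Smad5. It was 28.9% and 79.0% for Gdf9, but 31.2% and 25.9% for Chrd and 28.7% and 26.5% for Id1. The share of all genes with a wider spread was not counted. The means gave a log2 fold change of 0.16 (SE 0.17, 95% interval -0.20 to 0.53, edgeR adjusted p = 0.64).

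βCat-GOF mice 1 and 2, whose labels share a stem, also had the highest zG marker sums, 3410 and 2929 CPM, against 1353 to 2210 CPM in the other βCat-GOF mice. Beside the lowest Bmp7 and the highest Inha, these mice had the highest levels of Smad5 (4040 and 3264 normalized counts) and of Amhr2 (40.2 and 33.1). The part of the zG cells or of a shared family in these values was not tested. The ratio of Bmp7 to Bmp6, chosen after the values were seen and so given without a p-value, was 10.1 ± 2.54 in Ctrl and 18.6 ± 6.92 in βCat-GOF adrenals. It was 1.79-fold higher as a geometric mean, with 5 of 6 βCat-GOF mice above every Ctrl mouse.

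**Figure D5:**
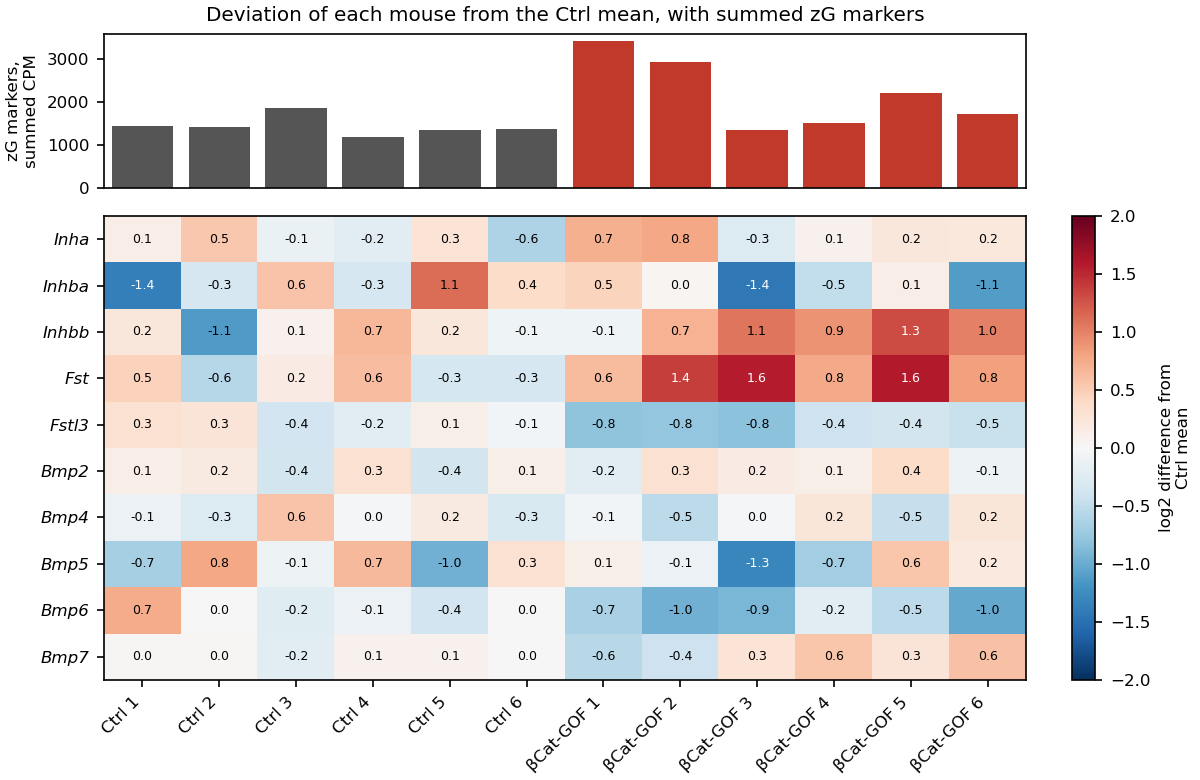
Log2 difference of each gene in each mouse from the Ctrl mean (colour and number, blue lower and red higher), below the summed CPM of 7 zG markers in the same mouse (bars). βCat-GOF mice 1 and 2 have the highest bars, 3410 and 2929 CPM, the highest Inha and the lowest Bmp7, while Fst is above and Fstl3 below the Ctrl mean in all 6 βCat-GOF mice.

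The ranges of the remaining BMP genes overlapped between the groups. Bmp2 (chr2:133552159-133562885, + strand, 3 exon blocks) had 252 to 402 normalized counts in Ctrl and 282 to 421 in βCat-GOF mice (log2 fold change 0.09, 95% interval -0.22 to 0.40, edgeR adjusted p = 0.78). Bmp4 (chr14:46383520-46390669, − strand, 4 exon blocks) had 142 to 263 and 123 to 209 (-0.11, -0.51 to 0.29, adjusted p = 0.78). For both genes the interval leaves out a change of 1.5-fold in either direction. Bmp5 (chr9:75775364-75900310, + strand, 8 exon blocks) had 19.8 to 67.5 and 15.2 to 58.2, with a wider interval (-0.23, -1.0 to 0.54, adjusted p = 0.76). Of its exon bases 46.7% overlap Gm26903 on the other strand, a gene named after its values were seen that had 0 to 7 counts per library.

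Beyond the 10 genes, 75 genes of the same pathways were followed in 6 lists, of which 56 were tested and 39 had a base mean over 100. None was called higher (0 genes) or lower (0 genes), and by the adjusted p alone 1 of 56 rose and 1 of 56 fell, close to the shares over all genes (2.16% and 1.52%), so that the counts set the lists apart from other genes in neither direction. Bmp1, which despite its name encodes a metalloprotease that cleaves procollagen and chordin, had 727 to 884 normalized counts in Ctrl and 959 to 1215 in βCat-GOF mice, without overlap, and rose by 0.39 on the log2 scale (SE 0.081, edgeR adjusted p = 0.019), short of the 1.4-fold limit. Tll1, a close relative named after its values were seen, fell from 62.4 ± 10.6 to 36.8 ± 7.47 (SD, n = 6 each; log2 fold change -0.78, SE 0.19, edgeR adjusted p = 0.04), also without overlap. Chordin (Chrd), the BMP antagonist with the smallest p among those tested, had 258 to 747 normalized counts in Ctrl and 253 to 503 in βCat-GOF mice, a log2 fold change of -0.58 (SE 0.23, edgeR adjusted p = 0.17). The 6 processing proteases had a median log2 fold change of 0.18.

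Of 16 antagonists 11 were tested, with a median log2 fold change of -0.03 and log2 fold changes from -0.58 to 0.56. Chrdl2, Sost and Cer1 had at most 3 counts in every mouse. Nog, which encodes the BMP antagonist noggin, fell below the filter on low counts, with 1 to 16 raw counts per library, and was named after its values were seen. Its normalized counts ran from 0.762 to 5.59 in Ctrl and from 8.95 to 15.8 in βCat-GOF mice, so that the groups did not overlap. In the edgeR fit without the filter, over 24911 genes, its log2 fold change was 1.96 (SE 0.43, 95% interval 1.06 to 2.86, adjusted p = 0.022). Grem1, another BMP antagonist below the filter and also named after its values were seen, had 15.7 ± 10.3 normalized counts in Ctrl and 5.67 ± 1.85 in βCat-GOF mice (SD, n = 6 each), and in the same fit its adjusted p was 0.12.

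Of 17 receptors and co-receptors 16 were tested, and 11 had a lower and 5 a higher mean level in βCat-GOF mice. Over all genes tested, 50% had a higher level. The receptors had a median log2 fold change of -0.21. Their summed level was 906 to 1143 CPM in Ctrl and 659 to 934 CPM in βCat-GOF mice, with overlapping ranges. Tgfbr3, named after its values were seen, weighs most in this sum (mean normalized counts of 7663 in Ctrl and 6048 in βCat-GOF mice). Endothelial markers, all 6 of which had lower mean levels, summed to 576 to 758 CPM in Ctrl and 498 to 696 CPM in βCat-GOF mice, with overlapping ranges. Macrophage markers summed to 320 to 610 CPM (median 366) in Ctrl and 237 to 394 CPM (median 358) in βCat-GOF mice. Of these 6, 1 (Adgre1) was called lower and 1 (Csf1r) had a higher mean level. The part of endothelial cells and macrophages in the receptor values was not tested. The receptor with the smallest p was Amhr2, the type II receptor of anti-Müllerian hormone, with 1.4 to 10.8 normalized counts in Ctrl and 9.84 to 40.2 in βCat-GOF mice (log2 fold change 1.68, SE 0.46, edgeR adjusted p = 0.063). Hjv, a BMP co-receptor, had at most 3 counts in every mouse.

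All 8 Smads were tested, and their median log2 fold change was 0.04. Smad5, a mediator of BMP signals, came nearest to the threshold, with 1958 to 2240 normalized counts in Ctrl and 2186 to 4040 in βCat-GOF mice (log2 fold change 0.47, SE 0.13, edgeR adjusted p = 0.073). The 10 BMP target genes had a median of -0.06, and Id1, the most used of them as a readout of BMP signals, had 745 ± 213 and 703 ± 187 normalized counts (log2 fold change -0.09, edgeR adjusted p = 0.86). Id4, the target with the smallest p, had 17.1 to 39.1 in Ctrl and 27.3 to 102 in βCat-GOF mice (log2 fold change 1.27, SE 0.34, edgeR adjusted p = 0.053). Among 21 other ligands of the superfamily, 8 were tested, with a median log2 fold change of 0.29, and the smallest p was that of Gdf9, a growth factor best known from the oocyte (17.4 ± 5.03 against 39.9 ± 31.6, log2 fold change 1.18, edgeR adjusted p = 0.15). Inhbc and Inhbe, which encode further inhibin β chains, and Bmp8a, Bmp8b, Bmp10, Gdf2, Mstn and Nodal had at most 3 counts in every mouse.

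Across the 12 mice, with the mean of each group removed, Inhbb and Fst varied in the same direction (Pearson r = 0.695, Spearman rho = 0.72) and Bmp2 and Bmp4 in opposite directions (r = -0.776, rho = -0.804). These are the highest and lowest of all pairs of the 10 genes, and the values of a pair come from the same libraries. The genes whose variation was most like that of Fstl3, among 11430 others, were Dnmt1 (r = 0.948), Robo4 (r = 0.941) and Tars2 (r = 0.941), and none of them passed the test between the groups (edgeR adjusted p of 0.89, 0.63 and 0.98). For Inha they were Slc25a23 (r = 0.957), Disp1 (r = 0.941) and Zfyve26 (r = 0.939), with adjusted p of 0.75, 0.21 and 1.0.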

How the data were processed

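RNA from the whole adrenals of 6 Ctrl and 6 βCat-GOF mice was prepared with an Illumina TruSeq mRNA kit. According to the deposited notes and the methods, the authors aligned reads to mm10 with STAR, counted reads per gene with featureCounts 1.4.4 and used DESeq2 1.6.3. The authors deposited raw counts of 39017 genes, and a signal table of the same counts divided by 1 factor per library. The annotation release and the strand setting of the counting are not given in the sources used here. Here the counts were tested with edgeR 4.0.16 (TMM, filterByExpr, quasi-likelihood test, two-sided, Benjamini-Hochberg over all 14953 genes tested) in R 4.3.3. A call needed an adjusted p under 0.05, a fold over 1.4 and a base mean over 100 normalized counts. The deposited signal served only to recover its factors, which were 0.9545 to 0.9758 times the median-of-ratios factors computed here. Log2 values for permutation tests of genes had a pseudocount of 1. Permutation tests enumerated all 924 splits of the 12 mice. No column was left unmapped (0 columns).

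The members and gene lists were chosen with earlier results of these data known. All 10 members are named, and from each pathway list at most 4 called genes or, where none was called, the gene with the smallest p, and the 3 genes most correlated with each called member and with Inha (base mean of at least 100, Pearson r of group-centred log2 CPM with a prior count of 2). Genes named outside this rule are described as such, apart from zG and macrophage markers, Id1 and the list genes with at most 3 counts. Exon lengths and positions came from GENCODE M21 (GRCm38, the assembly of mm10) and upstream windows from RefSeq (GRCm38.p6). No member had a copy elsewhere (identity of 95% or more across 10% or more of the longest transcript). Each library was taken as a separate mouse, which the labels leave uncertain for 3 pairs with a shared stem, so p-values measure the spread between these libraries. Depth was 13484675 to 25625494 counts, and values under about 10 counts carry large counting noise. DESeq2 1.42.0, with and without its prior, served as an alternative, as did median-of-ratios factors, no filter, 10 counts in every mouse, the adjusted p alone, fits without certain mice by label, and fits without each single mouse. The factors of the deposited signal and the ratios within a mouse were added after the data were seen. The steps were tested on simulated counts. Figures used Python 3.11.15 and matplotlib 3.10.9.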

Additional observations from a re-analysis of the deposited data

Results flagged for a closer look

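In 20 groups tested (10 genes in each genotype), a highest or lowest mouse stood apart from the other 5 by Dixon's criterion (its gap to the nearest mouse, as a share of the range of the group, at the 95% level) in 2, where chance alone marks about 5% of groups. Ctrl mouse 1 had 220 normalized counts of Bmp6, with the next mouse at 133 and a gap of 0.731 of the range. Ctrl mouse 3 had 1103 normalized counts of Bmp7, with the next at 1294 and a gap of 0.68 of the range.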

How the results depend on the processing

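No paired analysis was possible because the labels give the genotypes no shared replicate numbers. The number of members called lower was 1, became 2 with DESeq2 with or without its prior, and ran from 0 to 2 when each mouse was left out. The number called higher was 0, and 1 by the adjusted p alone. Genes called higher over the whole table numbered 222, against 361 with DESeq2 without shrinkage and 146 (without Ctrl mouse 6) to 340 (without βCat-GOF mouse 1) when a mouse was left out. Genes called lower numbered 130, against 280 and 254 with DESeq2 without and with its prior, 228 by the adjusted p alone, 228 without the mice whose label repeats a stem and 80 without βCat-GOF mouse 5. They ran from 61 to 223 when a mouse was left out, moving by over 1.5 times without Ctrl mouse 6 (61) or βCat-GOF mouse 1 (223), 5 (80) or 6 (63). The log2 fold change of Fst was 0.92 to 1.36 over 8 alternatives and 1.01 to 1.26 over the mice left out, with an adjusted p of 0.063 at 1.03 without βCat-GOF mouse 5. Fstl3 kept its side of the threshold under 8 alternatives (adjusted p 0.0019 to 0.049) and ran from -0.69 to -0.55 over the mice left out, where 6 of 12 fits kept an adjusted p under 0.05. Bmp6 passed with DESeq2 (-0.75 without and -0.65 with the prior). Bmp4 changed sign (-0.19 to 0.03 over the mice left out), to 0.02 without the mice whose label repeats a stem and to 0.03 without Ctrl mouse 3, far from the threshold in both. Inha, Inhba, Inhbb, Bmp2, Bmp5 and Bmp7 kept their direction under every alternative and every mouse left out, although Inhba has no value with 10 counts in every mouse, which it does not reach. The cause of these shifts was not tested. Low counts limit Inhba, Bmp5 and Fst most.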
